A study of Mus musculus with 48 samples.

Results

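ATAC-seq, in which the Tn5 transposase cuts and tags DNA that is not covered by nucleosomes, was used here to compare P19 cells whose type I receptors were blocked with SB-431542 with untreated P19 cells. P19 is a mouse embryonic teratoma line that secretes its own NODAL and GDF3. The comparison takes in 24 of the 48 libraries of the series, 12 for each state, which came from 2 biological replicates per state and were merged by the authors before peaks were called. Merging the 2 peak lists gave 263555 regions, of 287329 over all 4 states of the series.

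The SB-431542 cells were held in 10 µM of the compound overnight, washed, and given SB-431542 again for 1 h in medium with serum. No such wash and change of medium is given for the untreated cells in the sources used here, so the inhibitor and the fresh medium cannot be told apart. The untreated cells received neither inhibitor nor added ligand, and signalled through the NODAL and GDF3 that they make. The other 2 states, 1 h and 8 h of Activin after an SB-431542 night, are given below only as values at single regions. As each state has a single merged peak list, no difference below has a replicate check or a p-value. The Wilson 95% intervals cover counting error only, and regions of 1 list are not replicates of a condition. Over all protein-coding genes 73.0% had a promoter peak in both states and 24.7% in neither. All 8 of 8 pluripotent-cell promoters checked, such as *Pou5f1* and *Lin28a*, had a peak in both states. Of 10 promoters of genes of other lineages, 5 had a peak in both and 5 (*Afp*, *Alb*, *Cd3e*, *Myog* and *Ttr*) in neither.

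NODAL, GDF3 and Activin bind type II receptors and type I receptors such as ACVR1B, and the activated type I receptor phosphorylates SMAD2 and SMAD3. These join SMAD4, enter the nucleus and bind the short motif CAGAC, often beside a partner such as FOXH1, a forkhead factor that recruits SMAD2 to mesendoderm genes. SB-431542 occupies the ATP pocket of ACVR1B, TGFBR1 and ACVR1C and stops SMAD2 phosphorylation, and an open enhancer appears in ATAC-seq as a short peak. AP-1, the dimer of FOS and JUN family proteins, and TEAD factors, the DNA-binding partners of YAP and TAZ, bind at many enhancers of cells that respond to serum and to contact with their substrate.

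Some of the regions that the results turn on are shown first, as the central 200 bases of each region, read from the RefSeq GRCm38.p6 genome (the same coordinates as mm10), forward strand, 5′ to 3′. In the opened examples capitals mark an AP-1 match (TGANTCA) or a TEAD match (GGAATGT), and in the closed or weakened examples capitals mark a FOXH1 match (AATNNACA) or the SMAD-binding element CAGAC, each on either strand. The opened regions nearest to *Gm15679* (chr8:98008298-98008497, intergenic, 998.7 kb from that gene's start, without an AP-1 match and 100% soft-masked as repeat), *Tmem117* (chr15:94620963-94621162, intergenic), *Cacnb4* (chr2:52609542-52609741, intronic) and *Aspa* (chr11:73318577-73318776, intronic) had the highest −log10 q among all opened regions.
Gm15679: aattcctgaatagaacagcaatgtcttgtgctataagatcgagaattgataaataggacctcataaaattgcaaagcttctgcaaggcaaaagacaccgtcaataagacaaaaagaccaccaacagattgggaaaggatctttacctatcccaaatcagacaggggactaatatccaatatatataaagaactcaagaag
Tmem117: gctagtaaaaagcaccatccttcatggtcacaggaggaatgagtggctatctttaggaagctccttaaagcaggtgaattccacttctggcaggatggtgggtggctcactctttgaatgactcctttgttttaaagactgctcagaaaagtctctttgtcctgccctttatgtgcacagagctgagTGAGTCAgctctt
Cacnb4: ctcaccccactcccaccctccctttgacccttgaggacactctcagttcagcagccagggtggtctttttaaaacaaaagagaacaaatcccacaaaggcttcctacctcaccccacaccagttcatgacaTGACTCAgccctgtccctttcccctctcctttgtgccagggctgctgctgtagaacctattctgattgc
Aspa: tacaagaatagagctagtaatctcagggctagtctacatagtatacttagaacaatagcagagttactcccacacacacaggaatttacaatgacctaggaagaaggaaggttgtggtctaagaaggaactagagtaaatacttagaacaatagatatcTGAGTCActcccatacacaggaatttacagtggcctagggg
The closed region 37.9 kb from the start of *T* (chr17:8396405-8396604, in an intron of *Gm16702*) and the weakened region 45.1 kb from the start of *Eomes* (chr9:118432978-118433177, in an intron of *4933432G23Rik*) are shown for the other direction. Among regions within 100 kb of each gene, the *T* region had the highest −log10 q of the closed ones. The *Eomes* region had the largest fall in fold enrichment of the shared ones. Both were chosen at genes that NODAL induces, not as the strongest losses of the whole comparison.
T: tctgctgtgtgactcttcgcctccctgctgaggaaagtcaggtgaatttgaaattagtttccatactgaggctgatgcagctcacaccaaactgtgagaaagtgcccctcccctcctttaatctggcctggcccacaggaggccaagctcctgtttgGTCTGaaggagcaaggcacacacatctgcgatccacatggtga
Eomes: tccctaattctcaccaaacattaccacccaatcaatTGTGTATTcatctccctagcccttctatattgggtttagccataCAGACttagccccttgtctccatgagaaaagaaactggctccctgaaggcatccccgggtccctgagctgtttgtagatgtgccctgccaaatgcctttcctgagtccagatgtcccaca
Of the opened sequences, 3 hold 1 AP-1 match each. The *Eomes* sequence holds 1 FOXH1 match and 1 SMAD-binding element, and the *T* sequence holds 1 SMAD-binding element and 0 FOXH1 matches. Letters of these kinds also stand in opened sequences, with 2 FOXH1 matches at *Aspa* and 1 SMAD-binding element at *Gm15679*, not in capitals. A match is a run of letters, not a measured binding site.

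Most of the accessible genome was found in both states. A peak was present in both lists at 186702 regions (70.8%), which cover 188.0 Mb. Opened regions, with a peak under SB-431542 and none in untreated cells, numbered 45739 (17.4% of the 263555), and closed regions, with a peak in untreated cells and none under SB-431542, numbered 31114 (11.8%). The opened regions cover 19.4 Mb and the closed regions 13.8 Mb. The lists differed in depth as well as in content: the lowest local background, which follows the number of reads, was estimated at 26.6 in the SB-431542 list and 22.6 in the untreated list, so that the untreated value was 84.8% of the other. When the longer SB-431542 list was cut to the length of the untreated list by −log10 q, the counts were near equal, at 37952 opened and 37816 closed regions. When both lists were held to a −log10 q of at least 5, 35667 regions were opened and 16963 closed. The excess of opened over closed regions therefore depended on how the lists were matched, and its relation to depth was not tested.

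Both groups were made up mainly of weak and narrow peaks. The fold enrichment that the peak caller gives for each peak (column 7 of its output) is the mean pileup of cut fragments over the peak divided by the local background of the same library. It had a median of 1.87 in opened regions under SB-431542 and 1.82 in closed regions in untreated cells, against 2.48 (SB-431542) and 2.46 (untreated) in shared regions. The median width was 319 bp for opened, 331 bp for closed and 805 bp for shared regions. The caller also gives −log10 q, an adjusted significance of each peak over its own background, which is no test between states. At a −log10 q of at least 5 there were 17049 opened regions (6.47% of all regions, 37.3% of the opened) and 7069 closed regions (2.68% of all, 22.7% of the closed). At 20 or more, 1360 opened and 228 closed regions were left. The highest fold enrichment was 8.00 in an opened region and 8.52 in a closed one.

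Within the shared regions the 2 states were close. The log2 ratio of fold enrichment, SB-431542 over untreated, had a median of 0.02 and an SD of 0.26 across regions, and the median was subtracted before regions were called. A region was called higher or lower with SB-431542 where this scaled ratio moved by 1.5-fold or more. Higher regions numbered 4462 (2.39% of shared) and lower regions 3192 (1.71%), and 179048 (95.9%) stayed within 1.5-fold. In the higher regions the median fold enrichment was 4.03 under SB-431542 and 2.23 in untreated cells. In the lower regions it was 2.14 under SB-431542 and 3.60 in untreated cells. The plot of fold enrichment in both states shows the shared regions along the diagonal.

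**Figure D1:**
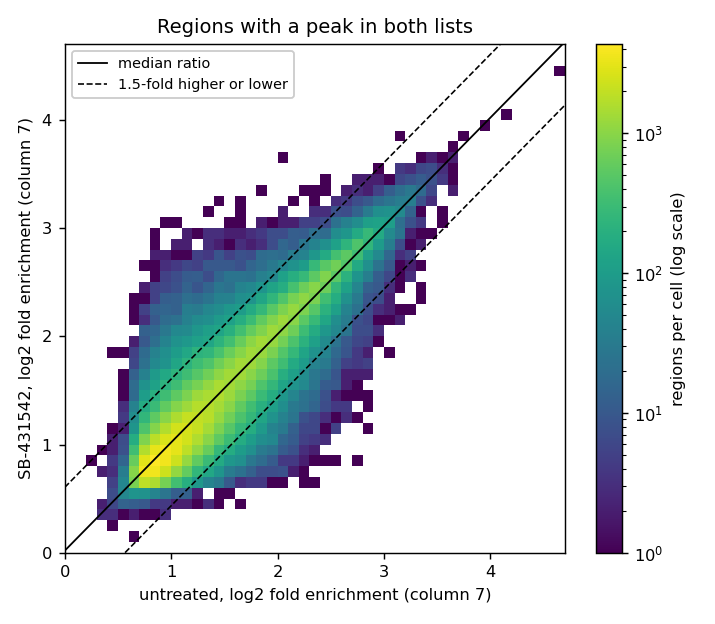
Log2 fold enrichment over local background (column 7) of the regions with a peak in both lists, with SB-431542 on the y axis and untreated cells on the x axis; colour gives the regions per cell on a log scale, the solid line the median ratio and the dashed lines 1.5-fold either side. Most regions lie between the dashed lines, with 4462 above and 3192 below them.

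Promoters changed far less often than distal regions. A region was assigned to a promoter, exon, intron or intergenic space by its centre. Of 10190 promoter regions, 395 were opened (3.88%, 3.52 to 4.27) and 228 closed (2.24%, 1.97 to 2.54). Among 154702 intergenic regions 17.7% were opened and 12.5% closed, and among 89482 intronic regions 18.8% were opened and 12.1% closed. Exonic regions lay between, with 11.7% opened and 8.38% closed of 9181. Promoters made up 0.864% of opened regions and 0.733% of closed regions, against 5.12% of shared regions. The same held for strength: of the shared promoter regions 0.669% were higher and 0.199% lower, whereas of the shared intronic regions 2.79% were higher and 1.97% lower.

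Promoter peaks were also stronger, with a median fold enrichment of 4.55 under SB-431542 and 4.21 in untreated cells at shared promoters, against 2.31 (SB-431542) and 2.30 (untreated) at shared intergenic regions. The scaled log2 ratio had a median of 0.07 at promoters and −0.02 at intergenic regions. The low share of promoters among opened and closed regions and the greater strength of promoter peaks cannot be told apart here. Opened and closed regions lay a median 67.2 and 68.7 kb from the nearest start site, and shared regions 52.5 kb. The strongest of them were nearer: the median was 39.6 kb for opened and 28.1 kb for closed regions with −log10 q of at least 20. Within 1 kb of a shared region lay 5.98% of opened and 6.80% of closed regions, and at −log10 q of at least 20 4.93% of opened and 11.8% of closed regions.

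**Figure D2:**
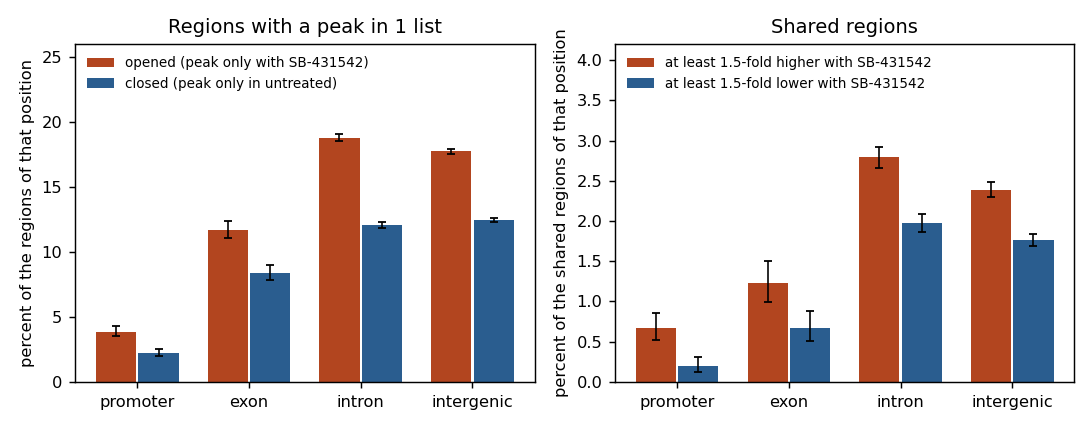
Share of regions in promoters, exons, introns and intergenic space that were opened or closed with SB-431542 (left, percent of the regions of each position) and share of the shared regions that were higher or lower (right, percent), with error bars as Wilson 95% intervals for counting error. Promoters had the lowest shares, 3.88% opened and 2.24% closed, against 17.7% opened and 12.5% closed of intergenic regions.

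Counted by gene, 15339 of 21000 protein-coding genes (73.0%) had a promoter peak in both states and 5183 (24.7%) in neither. An opened promoter was found for 288 genes (1.37%) and a closed one for 190 (0.905%). Of the genes with a peak in both, 62 promoters were higher (0.404%) and 21 lower (0.137%). The genes named next are among the 10 opened promoters with the highest −log10 q. The promoter of *Trpv3*, a heat-gated cation channel of skin, had a fold enrichment of 4.45 under SB-431542, 3.09 after 1 h of Activin and 1.77 after 8 h, with no peak in untreated cells. *Tcstv3* and *Tcstv1*, genes named for their transcripts at the 2-cell stage, stood at 4.27 and 3.41 under SB-431542. *Mobp* (a myelin protein, 4.04), *Ankrd1* (a muscle ankyrin-repeat protein that is a common YAP target, 3.68) and *Klk6* (a secreted serine protease, 3.32) followed, with *Fam71e2*, *Spata31d1d* and *Dhrs9* between them. All 10 had a peak after 1 h of Activin, where the cells had also spent the night in SB-431542.

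Closed promoters were weaker. The strongest, *Col6a4* (a collagen VI chain), had no peak under SB-431542 and a fold enrichment of 2.96 in untreated cells, with a −log10 q of 14.4 against 53.9 for *Trpv3*. *Svs1* (2.91), *Dio1* (a deiodinase of thyroid hormone, 2.55), *Gkn3* (2.53), *Tnfrsf13b* (the B-cell receptor TACI, 2.50), *Bcl2a1c* (2.48), *Tmprss11c* (2.45), *Nlrp5* (a maternal-effect gene of the oocyte, 2.40), *Hgfac* (2.37) and *Opn5* (a light-sensing opsin, 2.12) made up the rest of the top 10. None of these 20 genes is on the NODAL or mesendoderm lists. Those lists hold only 15, 13 and 18 of 26180 genes, so this absence says little about the pathway.

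Width changed little. In the 182335 regions with 1 peak in each list the median width was 660 bp under SB-431542 and 653 bp in untreated cells, and the ratio had a median of 1.01 (quartiles 0.885 and 1.17). Under SB-431542 10951 of these peaks (6.01%) were at least 2-fold wider and 10234 (5.61%) at least 2-fold narrower. Promoter peaks hardly moved, with quartiles of 0.964 and 1.06. Width followed strength: higher regions were 628.5 bp wide under SB-431542 and 466.0 bp in untreated cells, a median ratio of 1.29, and lower regions were 508.0 bp under SB-431542 and 672.5 bp in untreated cells, a median ratio of 0.806. A broad peak in untreated cells was split into 2 or more under SB-431542 at 2206 regions, and the reverse was seen at 2076.

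The largest width changes were at weak peaks whose enrichment moved little. The peak in an intron of *Mbtd1* was 262 bp under SB-431542 and 3324 bp in untreated cells (ratio 0.0788), while its fold enrichment was 2.32 under SB-431542 and 2.61 in untreated cells. The peak in an intron of *Npas3*, a neuronal bHLH factor, was 3211 bp under SB-431542 and 259 bp in untreated cells (ratio 12.4), with fold enrichments of 2.03 under SB-431542 and 2.71 in untreated cells. *Htr1f*, *Rps27a*, *Brinp3* and *Zfp933* were the nearest genes of the other strongly narrowed peaks, and *F2rl1*, *Pkp4*, *Edn2* and *Ptprd* of the other strongly widened ones. Of these 10 regions, 9 stayed within 1.5-fold in enrichment and the *Rps27a* region was lower.

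The 10 opened regions with the highest −log10 q (104 to 149) lay 0 in promoters, 3 in introns and 7 between genes. The strongest was the repeat-masked region nearest to *Gm15679*, with a fold enrichment of 7.97 under SB-431542, 6.48 after 1 h of Activin and no peak after 8 h or in untreated cells. The region 8.12 kb from *Tmem117* had 8.00 under SB-431542, 5.80 after 1 h, 2.14 after 8 h and no peak in untreated cells. Those in introns of *Cacnb4*, a calcium-channel subunit, and *Aspa*, an enzyme that splits N-acetylaspartate, had 7.23 and 7.34 under SB-431542 and 2.82 and 2.32 after 8 h. The other 6 were nearest to *Ankrd28*, *H2af-ps2*, *Nr1h4* (the bile-acid receptor FXR), *Nrp2* (a receptor of semaphorins and VEGF), *Noct* and *Olig3*. All 10 kept a peak after 1 h of Activin and 7 after 8 h. An AP-1 match lay in the central 300 bp of 6 of the 10, against 12.2% of all regions.

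Closed regions of comparable rank were fewer and more mixed. The strongest, in an intron of *Mcc*, had no peak under SB-431542, 4.38 after 1 h of Activin, 6.86 after 8 h and 8.52 in untreated cells, and is 100% repeat-masked, as is the region in an intron of *Dst* (a cytoskeletal linker, 5.97 in untreated cells). Regions nearest to *Zcchc13* (4.76), *Gm14596* (5.24) and *Odf1* (4.83), on chromosomes X, X and 15, and one near *Spcs3* (2.77) were also closed. In 3 of the 10, nearest to *Rbpms2*, *Bsg* and *Ptprs*, the fold enrichment in untreated cells was only 1.21, 1.26 and 1.09, and the high −log10 q came with a very high background. None of the 10 held an AP-1 match, 4 held a FOXH1 match and 6 a SMAD-binding element, against 12.2%, 17.1% and 52.8% of all regions.

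Among shared regions whose −log10 q was 5 or more in each list, the largest falls ran to a scaled log2 ratio of −1.65. That was in an intron of *Stxbp5* (tomosyn, a regulator of vesicle fusion), with 2.28 under SB-431542, 2.31 after 1 h of Activin, 5.58 after 8 h and 7.06 in untreated cells. The 10 largest falls had 2.06 to 2.60 under SB-431542 and 5.46 to 7.10 in untreated cells, without overlap. Besides *Stxbp5*, the nearest genes were *Gm38423*, *Adgrg6*, *Gm10440*, *Htr2c*, *Pla2g4a*, *A930019D19Rik*, *Bmx*, *2310005A03Rik* and *Mab21l1*, with starts 7.73 to 1341 kb away. After 8 h of Activin the 10 regions had 2.89 to 8.42, and this value lay nearer to untreated cells than to SB-431542 in 6 of the 10. After 1 h the value lay nearer to SB-431542 in 8 of the 9 that had a peak, the exception being *Adgrg6*. A SMAD-binding element lay in 8 of the 10, a FOXH1 match in 3 and an AP-1 match in 3, against 52.8%, 17.1% and 12.2% of all regions.

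The largest rise was nearest to *Gm30789*, with 8.61 under SB-431542, 8.34 after 1 h of Activin, 3.42 after 8 h and 2.49 in untreated cells, a scaled log2 ratio of 1.77. An intronic region whose nearest start, 192 kb away, is that of *Pax9*, a paired-box factor of pharyngeal endoderm, had 9.53 under SB-431542 and 2.77 in untreated cells. The region 45.3 kb from *Spry2*, an inhibitor of FGF signalling, had 7.74 under SB-431542 and 2.262 in untreated cells. *Pex2*, *Fmr1os*, *Cftr*, *Khdrbs2*, *Stox2*, *Grik2* and *Mir3072* were the nearest genes of the other 7, with starts 42.6 to 1721 kb away. The 10 ran 6.98 to 9.62 under SB-431542, 5.65 to 8.56 after 1 h, 2.255 to 4.93 after 8 h and 2.17 to 3.24 in untreated cells. In each of these the 8 h value lay nearer to untreated cells than to SB-431542, and the 1 h value lay nearer to SB-431542 in each but the *Mir3072* region. A SMAD-binding element lay in 3 of these 10, a FOXH1 match in 4 and an AP-1 match in 3, against 52.8%, 17.1% and 12.2% of all regions. Neither FOXH1 nor AP-1 matches set the 10 rises apart from the 10 falls. These 2 sets were chosen for their ratio, so their separation between SB-431542 and untreated cells is a description of the choice.

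Some genes had several strong changes within 50 kb of their start. Over all genes 7.16% of the regions within 50 kb were opened and 3.12% closed with a −log10 q of at least 5, and the genes named next have the highest counts of 26180. *Ncald*, which encodes the calcium sensor neurocalcin, had 6 closed regions with −log10 q of at least 5 of 19 regions in all, together with 2 such opened regions. *Kis2* had 5 closed of 12 and no opened. Genes with 4 included *Acap2*, *Cpne6* and *Cotl1*, the last with 3 such opened regions as well. On the opened side *Cmip*, *Crybg1*, *Foxp1* (a forkhead repressor), *Zfp532* and *Zmiz1* (a co-activator that binds the androgen receptor) had 7 each, of 35, 23, 52, 18 and 17 regions. *Zfp532* and *Zmiz1* had no closed region.

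The promoters of the NODAL pathway itself had peaks in both states, with 1 exception. The 15 ligands, receptors and SMADs comprised *Nodal*, *Gdf3*, *Gdf1*, *Inhba* and *Inhbb* among the ligands, the co-receptors *Tdgf1* (Cripto) and *Cfc1* (Cryptic), the receptors and the signal transducers with *Foxh1*. Of them 14 had a promoter peak in both states, and none had an opened, closed, higher or lower promoter by fold enrichment, calls that were rare over all coding promoters too (1.37%, 0.905%, 0.404% and 0.137%). By estimated pileup the *Nodal* promoter was lower with SB-431542 (log2 ratio −0.67). Within 50 kb of the 15 starts lay 183 regions, of which 28 (15.3%, 10.8 to 21.2) were opened and 10 (5.46%, 2.99 to 9.77) closed, against 15.8% and 10.7% of the regions within 50 kb of any gene. Of the 145 shared regions 3 (2.07%) were higher and 3 lower, against 2.47% and 1.48% for all genes. The opened share was near that of all genes, and the closed share was below it.

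Single regions of these genes moved both ways. A region 6.01 kb from the *Nodal* start (chr10:61423246-61424720, intron) had 4.53 under SB-431542, 3.03 after 1 h of Activin, 2.07 after 8 h and 2.56 in untreated cells (scaled log2 ratio 0.80), and one 8.44 kb away had no peak under SB-431542 and 2.09 in untreated cells. The largest rise in the list was 19.5 kb from *Acvr2b* (chr9:119382399-119383014, intron), a type II receptor, with 6.35 under SB-431542, 4.30 after 1 h, 2.46 after 8 h and 2.67 in untreated cells (1.23). At *Smad2* an opened region 36.9 kb from the start (chr18:76204493-76205142, intergenic) had 5.49 under SB-431542, 4.91 after 1 h and 1.70 after 8 h, with no peak in untreated cells. Falls past 1.5-fold were found 14.4 kb from *Tdgf1* (2.68 under SB-431542, 4.09 in untreated cells, log2 ratio −0.63), 28.8 kb from *Smad3* (1.88 with SB-431542 and 2.83 in untreated cells, log2 ratio −0.61) and 33.5 kb from *Gdf3* (3.19 with SB-431542 and 4.76 in untreated cells, log2 ratio −0.60).

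The 13 target and feedback genes had more closed than opened regions. This list includes the secreted antagonists *Lefty1*, *Lefty2*, *Cer1* and *Fst*, the receptor-level inhibitors *Smad7* and *Pmepa1*, the SMAD co-repressors *Ski*, *Skil*, *Tgif1* and *Tgif2*, and *Trh* and *Tbx3*. Of 200 regions within 50 kb, 20 (10.0%, 6.57 to 14.9) were opened and 28 (14.0%, 9.87 to 19.5) closed, against 15.8% and 10.7% for all genes. The closed interval includes the value for all genes. A −log10 q of at least 5 was reached by 8 opened and 8 closed of the 200 regions, against 7.16% and 3.12% of the regions of all genes. Of 152 shared regions 5 (3.29%) were higher and 3 (1.97%) lower, against 2.47% and 1.48% for all genes. At 11 genes the promoter had a peak in both states and at 2 in neither.

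Regions that fell at these genes included one 24.7 kb from *Pmepa1* (chr2:173300606-173301908, intergenic), which encodes a membrane protein that sequesters SMADs, with 1.73 under SB-431542, 2.01 after 1 h of Activin, 2.61 after 8 h and 2.74 in untreated cells (log2 ratio −0.68). One 47.4 kb from *Tgif1* (chr17:70900561-70901266, intergenic) had 4.98 under SB-431542, 4.91 after 1 h, 7.41 after 8 h and 7.59 in untreated cells (−0.63). In both regions the 8 h value lay nearer to untreated cells than to SB-431542.

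Regions that rose lay 8.36 kb from *Smad7* (chr18:75375452-75375988, intron, 3.51 under SB-431542, 3.19 after 1 h, 1.73 after 8 h and 1.69 in untreated cells, log2 ratio 1.04), 75.8 kb from *Fst*, the Activin antagonist follistatin (6.20 under SB-431542 and 3.15 in untreated cells, 0.96), 7.61 kb from *Tgif2* (3.66 with SB-431542 and 2.09 in untreated cells, log2 ratio 0.79) and 9.93 kb from *Tgif1* (2.69 with SB-431542 and 1.58 in untreated cells, log2 ratio 0.75). *Smad7* also had a closed region 33.4 kb from its start with 2.53 in untreated cells and 2.61 after 8 h.

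At *Lefty1* the fold enrichment and the estimated pileup gave different pictures. The region 10.0 kb from its start (chr1:180924449-180925522, intergenic) had a fold enrichment of 4.86 under SB-431542, 6.02 after 1 h of Activin, 5.95 after 8 h and 5.60 in untreated cells, within 1.5-fold. The pileup that column 7 and the p-value imply was 189 under SB-431542 and 509 in untreated cells, a log2 ratio of −1.70 after the median shift of 0.27 was removed, and the local background was 38.1 under SB-431542 and 90.2 in untreated cells. Both the estimated pileup and the estimated background were thus lower with SB-431542, and their ratio moved less than either. Each estimate is solved from 1 fold enrichment and 1 p-value per peak and was not checked against reads. A region 58.2 kb from *Pmepa1* had the same form: a fold enrichment of 2.77 under SB-431542 and 3.35 in untreated cells, a pileup of 101 under SB-431542 and 352 in untreated cells (log2 ratio −2.08), and a background of 35.7 under SB-431542 and 104 in untreated cells. The rise of the region 15.6 kb from *Lefty1* in fold enrichment (4.98 under SB-431542 and 2.87 in untreated cells, 0.78) is the reverse case, as its pileup log2 ratio was −0.35.

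The mesendoderm genes, which NODAL induces in the embryo, showed larger single falls in fold enrichment than the other 2 NODAL lists, an order that does not hold for the estimated pileup, where the *Pmepa1* region above fell furthest. All 18 promoters had a peak in both states, and none was called changed, a call that was rare over all coding promoters too. Within 50 kb lay 207 regions, of which 15 (7.25%, 4.44 to 11.6) were opened and 29 (14.0%, 9.93 to 19.4) closed, against 15.8% and 10.7% for all genes. Of 163 shared regions 1 (0.613%, 0.108 to 3.39) was higher and 4 (2.45%, 0.958 to 6.14) lower, against 2.47% and 1.48% for all genes, which lie within these intervals. Taking the region with the largest fall within 100 kb of each gene, 7 of the 18 were past 1.5-fold, against 3 of 13 target genes, 3 of 15 ligand, receptor and SMAD genes and 17.6% of all genes. For the largest rise it was 2 of 18 mesendoderm genes, 7 of 13 target genes and 4 of 15 ligand, receptor and SMAD genes, against 28.2% of all genes. *Lefty1* and *Lefty2* share regions, so these genes are not independent. The median number of regions within 100 kb was 22.5, 27 and 23 per gene in these lists, against 20 for all genes. Of shared regions within 100 kb of mesendoderm genes, 2.35% (1.14 to 4.77) were lower and 0.671% higher. Over all genes it was 1.66% and 2.57%, and at target genes 1.21% and 2.82%. Within 50 kb the interval of the mesendoderm closed share includes the value for all genes, and that of the opened share lies below it. The median scaled log2 ratio of shared regions did not set the lists apart: it was 0.03 for the mesendoderm genes, 0.02 for the targets and 0.03 for the ligands, receptors and SMADs, against 0.02 for all genes.

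The region 45.1 kb from *Eomes*, a T-box gene of early mesendoderm, had 3.25 under SB-431542, 3.95 after 1 h of Activin, 8.08 after 8 h and 7.24 in untreated cells (log2 ratio −1.17, pileup −1.78). Its FOXH1 match and SMAD-binding element are the capitals in the sequence above. A region 58.9 kb from *Gsc* (chr12:104531633-104532638, intergenic), which encodes goosecoid, a homeobox factor of the organizer, had 2.38, 2.11 and 4.40 at SB-431542, 1 h and 8 h and 5.42 in untreated cells (−1.21). The region 49.1 kb from *Mixl1* (chr1:180647768-180648156, intron) had 2.98 under SB-431542, 3.18 after 1 h, 6.42 after 8 h and 5.39 in untreated cells (−0.87). In all 3 the states fell into a low pair, SB-431542 and 1 h, and a high pair, 8 h and untreated.

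*T* (brachyury) had a weakened and a closed region on the same side of its start. The region 58.5 kb away (chr17:8375232-8376596, intron) had 1.96 under SB-431542, 2.97 after 1 h of Activin, 3.26 after 8 h and 3.34 in untreated cells (log2 ratio −0.79), with a pileup of 85.9 under SB-431542 and 249 in untreated cells. The closed region 37.9 kb away had no peak under SB-431542 or after 1 h, 2.75 after 8 h and 4.05 in untreated cells. The *T* promoter peak itself was within 1.5-fold.

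Endoderm and signalling genes of the list followed. A region 22.2 kb from *Foxa2* (chr2:148021930-148024677, intergenic), a forkhead factor of definitive endoderm, had 3.18, 3.31 and 4.18 at SB-431542, 1 h and 8 h and 5.87 in untreated cells (log2 ratio −0.90). A closed *Foxa2* region 50.5 kb away had no peak under SB-431542, 5.12 after 8 h and 3.27 in untreated cells, while one 35.5 kb away was higher with SB-431542 (5.93 against 3.37 in untreated cells, 0.80). A region 80.4 kb from *Fgf8* had 2.16 under SB-431542 and 4.27 in untreated cells (log2 ratio −0.999), and one 34.2 kb from *Hhex* had 2.01 with SB-431542 and 3.13 in untreated cells (log2 ratio −0.65). *Gata4*, an endoderm and heart factor, had a closed region 60.8 kb from its start with 3.57 in untreated cells, and *Gsc* had a rise 75.03 kb away (3.55 under SB-431542 and 1.68 in untreated cells, 1.06). The plot of promoters, largest falls and largest rises sets both states side by side for each gene.

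**Figure D3:**
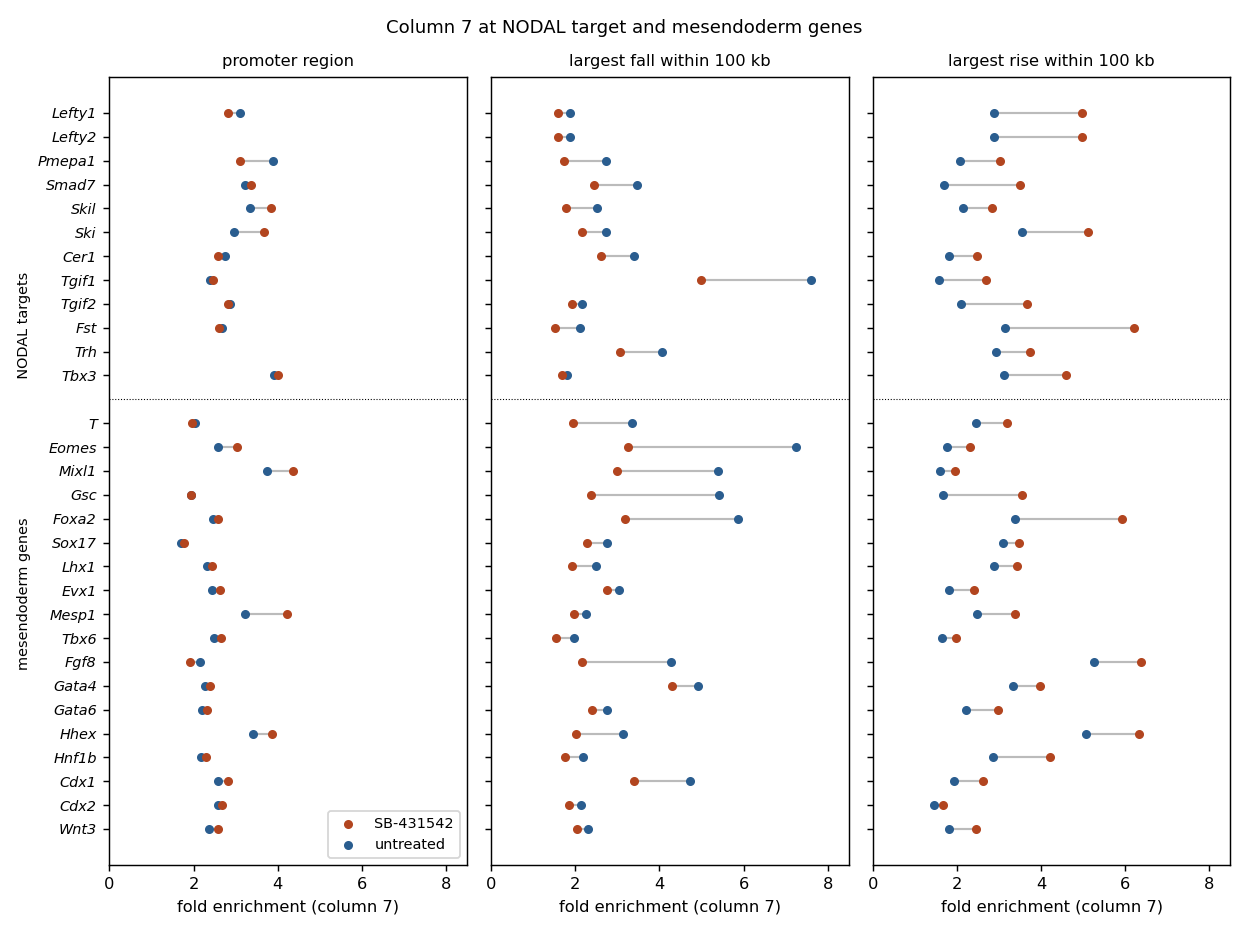
Fold enrichment over local background (column 7, ratio, x axis) with SB-431542 and in untreated cells at NODAL target genes (top) and mesendoderm genes (bottom), for the promoter region (left), the shared region with the largest fall within 100 kb (middle) and that with the largest rise (right), with a grey line joining the values of 1 gene; 1 merged list per state, so no error bars. The promoter pairs lie close together, while the largest fall at *Eomes* has 3.25 with SB-431542 and 7.24 in untreated cells, and the largest rise at *Foxa2* 5.93 with SB-431542 and 3.37 in untreated cells.

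Other pathways were less uniform. For 16 pluripotency genes 21 of 226 regions (9.29%, 6.16 to 13.8) were opened and 31 (13.7%, 9.84 to 18.8) closed, against 15.8% and 10.7% for all genes. Of their 174 shared regions 11 (6.32%, 3.57 to 11.0) were higher and 4 (2.30%) lower, against 2.47% and 1.48% for all genes. The higher ones included regions 26.7 kb from *Klf5* (4.74 under SB-431542 and 2.01 in untreated cells, log2 ratio 1.22) and, chosen after their values were seen, 20.5 kb from *Pou5f1* (4.90 with SB-431542 and 2.87 in untreated cells, log2 ratio 0.75) and 4.63 kb from *Nanog* (3.52 with SB-431542 and 2.18 in untreated cells, log2 ratio 0.67). The largest fall was 49.6 kb from *Dppa4* (1.88 under SB-431542 and 4.38 in untreated cells, −1.24). The 18 neural genes, which SB-431542 favours in differentiating stem cells, had 17 of 226 regions (7.52%, 4.75 to 11.7) opened and 28 (12.4%, 8.71 to 17.3) closed. Their opened share was thus below the 15.8% of all genes, and their closed interval includes the 10.7% of all genes. Their largest rise was near *Pax3* (4.93 under SB-431542 and 2.64 in untreated cells, 0.88).

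The 21 TGF-β and matrix genes had the highest opened share of the lists within 50 kb, 57 of 263 regions (21.7%, 17.1 to 27.0), with 20 (7.60%) closed, against 15.8% and 10.7% for all genes. Within 100 kb the BMP list was the higher, at 20.3% against 18.7%. One region in this list fell far: 7.23 kb from *Fn1* (fibronectin) it had 1.79 under SB-431542, 1.78 after 1 h of Activin, 3.79 after 8 h and 4.57 in untreated cells (−1.37). Among 18 WNT genes 40 of 283 regions (14.1%) were opened and 28 (9.89%) closed, near the shares of all genes, with the largest changes 42.5 kb from *Axin2*, a negative-feedback target of WNT (1.80 under SB-431542 and 3.64 in untreated cells, −1.03), and 12.6 kb from *Tcf7l2* (3.65 with SB-431542 and 1.60 in untreated cells, log2 ratio 1.17). Of 223 regions at 18 BMP genes 37 (16.6%) were opened and 20 (8.97%) closed, with changes near *Id3*, an inhibitor of bHLH factors (3.50 with SB-431542 and 2.01 in untreated cells, log2 ratio 0.78), and *Bambi*, a pseudoreceptor (1.62 with SB-431542 and 2.47 in untreated cells, log2 ratio −0.63).

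The 16 serum and AP-1 genes had 32 of 210 regions (15.2%) opened and 18 (8.57%) closed, against 15.8% and 10.7% for all genes, and 6 of 160 shared regions (3.75%) higher, against 2.47%. A region 29.0 kb from *Egr3*, an immediate early gene, had 6.43 under SB-431542 and 2.56 in untreated cells (1.31), and one 16.7 kb from *Jun*, chosen after its value was seen, had 6.03 with SB-431542 and 2.79 in untreated cells (log2 ratio 1.09). A region 3.00 kb from *Dusp1*, a phosphatase of MAP kinases, went the other way (1.62 with SB-431542 and 2.75 in untreated cells, log2 ratio −0.79). The 14 housekeeping genes, also below the shares of all genes, had 23 of 187 regions (12.3%) opened and 15 (8.02%) closed, with single changes near *Actb* (4.75 with SB-431542 and 2.80 in untreated cells, log2 ratio 0.75) and *Hprt* (1.895 with SB-431542 and 2.87 in untreated cells, log2 ratio −0.62). The 14 blood, muscle and liver genes had 19 of 147 (12.9%) opened and 8 (5.44%) closed, and *Ptprc* had a rise (2.85 with SB-431542 and 1.69 in untreated cells, log2 ratio 0.74) and a fall (2.37 with SB-431542 and 3.67 in untreated cells, log2 ratio −0.65). No promoter on any of the 11 lists was opened, closed, higher or lower by fold enrichment. Such calls were rare over all coding promoters too, at 1.37%, 0.905%, 0.404% and 0.137%. By estimated pileup 7 of 167 listed promoters were higher, *Id1* most (log2 ratio 0.93, chosen after its value was seen), and 2 were lower, *Lefty1* (−0.76) and *Nodal* (−0.67), against 2.24% and 0.391% of all coding promoters. The largest promoter rise among the mesendoderm genes was at *Mesp1* (4.23 under SB-431542 and 3.21 in untreated cells, log2 ratio 0.38), and the largest promoter falls were at *Sall4* (2.65 with SB-431542 and 3.70 in untreated cells, log2 ratio −0.50) and *Pmepa1* (3.11 with SB-431542 and 3.89 in untreated cells, log2 ratio −0.34).

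The sequence of the opened regions differed from that of the closed regions. AP-1 matches lay in the central 300 bp of 24.4% of opened regions (24.0 to 24.8) and 7.55% of closed regions (7.26 to 7.85), against 12.2% of all regions. In shared regions the shares were 31.1% of the higher and 7.61% of the lower. The share climbed with the strength of the opened peak: 17.3% below a −log10 q of 5, 31.5% from 5 to 10, 42.0% from 10 to 20, and 57.0% (54.3 to 59.6) at 20 or more. In closed regions it was 7.59%, 7.53%, 7.53% and 4.39% over the same steps. The TEAD motif followed the same order in opened regions, at 6.22%, 8.89%, 10.2% and 13.0%, against 4.93% of all regions, and was in 3.68% of closed regions. The part of the fresh serum of the last hour in these shares was not tested.

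**Figure D4:**
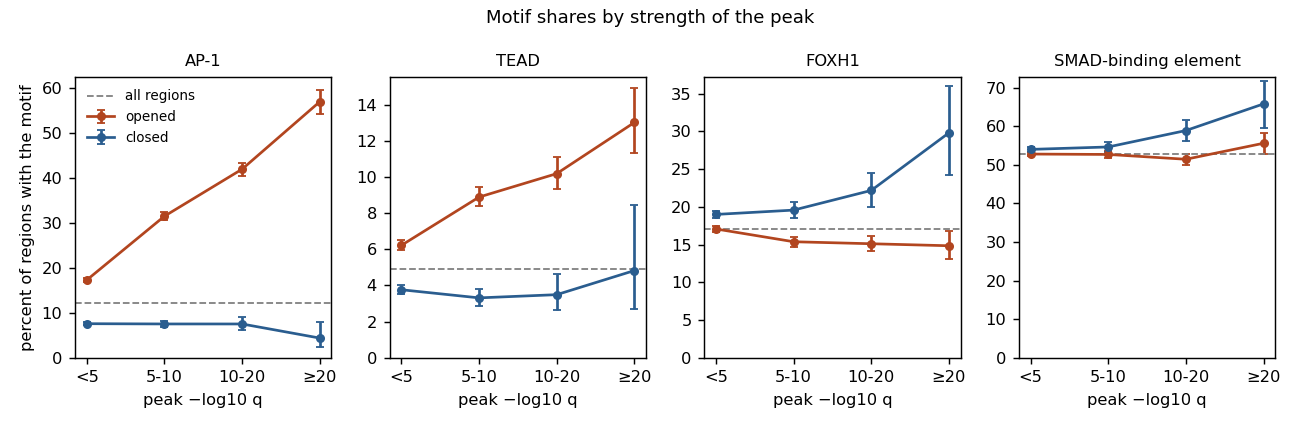
Share of opened and closed regions with a match in the central 300 bp, by the −log10 q of the peak (bars are Wilson 95% intervals for counting error). AP-1 reaches 57.0% of the opened regions with −log10 q of at least 20 and 4.39% of the closed ones, while FOXH1 reaches 14.9% of these opened and 29.8% of these closed regions.

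The AP-1 matches were centred on the opened peaks. In the 20 bp from the centre there were 62.2 matches per 1000 opened regions with −log10 q of at least 5, against 7.27 in a bin of the same width that begins 300 bp away. In shared regions within 1.5-fold the central value was 6.90, and in closed regions it was 4.39. The centre is the midpoint of the region, which need not be its highest point. Median widths were 293 bp for these opened, 284 bp for these closed and 809 bp for these shared regions. What width did to the central values was not tested. TEAD showed a smaller peak, with 10.6 matches per 1000 opened regions at the centre and 2.97 in shared regions. FOXH1 was not centred in this way: closed regions had 14.4 per 1000 at the centre and 19.1 in the outer bin. The AP-1 share of opened regions with −log10 q of at least 5 was 36.4% at promoters (68 of 187), 31.0% in exons (26.7 to 35.7), 35.4% in introns and 37.1% between genes (36.1 to 38.1).

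**Figure D5:**
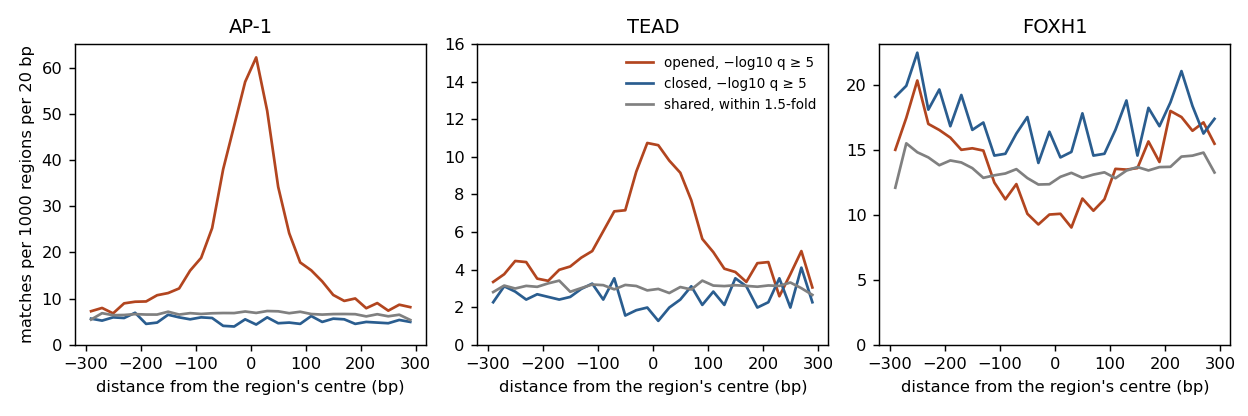
Matches per 1000 regions in 20-bp bins, by distance from the region's centre (bp), for opened and closed regions with −log10 q of at least 5 and shared regions within 1.5-fold. AP-1 stands at 62.2 per 1000 in the central bin of opened regions and at 6.90 in shared regions.

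Closed regions held more of the letters bound by FOXH1, forkhead, OCT4 and ZIC factors than opened regions. Lower regions likewise held more of them than higher regions. A FOXH1 match lay in 16.4% of opened regions (16.1 to 16.7) and 19.3% of closed regions (18.9 to 19.8), in 15.8% of higher and 22.2% of lower regions, and in 17.1% of all. It reached 29.8% (24.3 to 36.1) of the 228 closed regions with −log10 q of at least 20, where opened regions had 14.9%. The SMAD-binding element, only 5 letters long, was in 52.8% of all regions and 65.8% (59.4 to 71.6) of these 228. The forkhead motif GTAAACA was in 7.89% of them and 3.24% of the opened regions of that strength. ZIC matches (CAGCAGG), for zinc-finger factors active in pluripotent and neural cells, lay in 12.5% of the opened and 21.1% of the closed regions of that strength, against 12.0% of all. At any strength ZIC matches lay in 10.2% of opened, 13.2% of closed, 13.0% of higher and 17.9% of lower regions. The OCT4 octamer ATGCAAAT was in 2.63% of opened, 3.61% of closed, 4.08% of higher and 5.89% of lower regions, against 2.85% of all. Higher regions were thus above the share of all regions, and above closed regions, for this octamer. Over all shared regions the median scaled log2 ratio was 0.05 with an AP-1 match, and with a FOXH1 match it was −0.03. Mean GC content was 47.0% in opened and 46.1% in closed regions. The gap was wider at −log10 q of at least 20, with 48.4% in opened and 45.9% in closed regions. In shared regions it was 47.8% in the higher and 45.0% in the lower. The part of base composition in these shares was not tested, and where SMAD2 was bound in these cells was not analysed here.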

How the data were processed

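ATAC-seq was run on 100000 P19 cells per reaction. Per the labels and the study's methods, the authors trimmed reads with cutadapt 1.9.1, aligned them with BWA 0.6.2 to mm10, filtered them with BEDTools 2.26.0, merged the libraries and both replicates of a state, removed duplicates with Picard and called peaks in the broad mode of MACS2 (version 2.1.1.20160309), with cut sites shifted and extended and no control library. The deposited lists hold for each peak a fold enrichment over local background (a ratio, column 7), a −log10 p-value and a −log10 q-value. Pooling before calling leaves no replicate values, so no test was run. Values are relative to each library's own background, and a shallower list loses weak peaks.

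Here the SB-431542 and untreated lists were merged into regions by an overlap of 1 bp, and each region was given its highest peak per list. Fold ratios were centred on the median of shared regions. Pileup and background were solved from fold enrichment and −log10 p as a Poisson tail with a pseudocount of 1, and backgrounds of 500 or more were left out. Promoters ran from 1000 bp before to 100 bp after a RefSeq start site (45756 transcripts, 26180 genes, GRCm38.p6). Motifs (15) were sought on both strands in the central 300 bp. Python 3.11.15, numpy 2.4.6, pandas 2.3.3, scipy 1.17.1 and matplotlib 3.10.9 were used, and the scripts were tested on simulated peak lists. The Activin lists were read only at single regions.

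The 11 gene lists (180 genes) and the members were chosen with earlier results of these data known. The text names any gene of the NODAL and mesendoderm lists. For each other list it names the largest fall and rise of a promoter and of a shared region within 50 kb. It also names the nearest genes of the 10 closed and 10 opened regions and promoters with the highest −log10 q, of the 10 largest falls and rises with −log10 q of at least 5 in both lists, the 5 genes with most changed regions, and the 5 regions with the lowest and the highest width ratio. A few genes and a sequence that fall under this rule are not reported here. Other processing choices are compared in the closing section.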

Additional observations from a re-analysis of the deposited data

How the results depend on the processing

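No paired analysis was possible because both replicates of each state were pooled before peaks were called, and for the same reason no replicate could be left out. The untreated list is the shallower, and what depth did to the counts was not tested. With peaks of −log10 q of at least 5 in both lists, 35667 regions were opened and 16963 closed, 2031 shared regions were lower and 2727 higher, promoters made up 1.12% of opened and 7.66% of shared regions, and the median width ratio was 1.006. Higher and lower shared regions numbered 16229 and 15298 at 1.25-fold, 679 and 278 at 2-fold, 8290 and 7212 by estimated pileup, and 35724 and 37711 by a percentile shift of over 10 points, where the order turned. Any overlap with a promoter gave promoter shares of 1.13% (opened), 1.03% (closed) and 8.82% (shared), and coding start sites alone 0.608%, 0.517% and 4.60%. In the smaller window of 10 kb, the ligand, receptor and SMAD list had 6.67% opened and 0% lower, the target list 6.25% opened and 11.1% higher, and the mesendoderm list 3.57% opened, 3.57% closed, 0% lower and 0% higher. Over all genes the shares at 10 kb were 11.8% opened, 8.71% closed, 0.900% lower and 1.70% higher. The mesendoderm excess of closed over opened regions was not seen there, on only 2 opened and 2 closed of 56 regions. In the central 600 bp FOXH1 matches were in 33.3% of opened, 36.8% of closed, 31.0% of higher and 41.3% of lower regions, against 32.9% of all regions. AP-1 matches were in 33.6%, 14.7%, 44.3% and 15.6% of the same groups, against 20.5% of all regions. With −log10 q of at least 5, FOXH1 was in 15.3% of opened and 20.4% of closed regions, and AP-1 in 36.3% of opened and 29.6% of higher regions.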
